A study of Mus musculus with 6 samples.

Results

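The genes described here are 55 genes of DNA replication and of the G1/S transition, picked by gene symbol from the 34745 genes in the deposited count table. They were grouped by role into 12 licensing genes, 6 genes of helicase activation, 8 polymerase and primase subunits, 9 genes of the sliding clamp, its loader and lagging strand synthesis, 4 genes of nucleotide supply, 8 cyclins and cyclin-dependent kinases (CDKs), 4 E2F factors and 4 genes that copy chromatin behind the fork. Expression was measured by RNA-seq in NOR-10 cells, a mouse line of skeletal muscle fibroblasts, after 3 days with 20 mg/mL D-galactose (D-gal), a sugar used to induce a senescence model, or with an equal amount of PBS. Each group had n = 3 libraries, all from this 1 cell line, and neither the labels nor the methods say that the replicates were separate cultures, so p-values measure the spread between these libraries, which may be technical.

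A cell prepares for S phase in steps. In G1 the origin recognition complex, with Cdc6 and Cdt1, loads the MCM helicase onto origins, which is called licensing. Cyclin D with Cdk4 or Cdk6, and then cyclin E with Cdk2, phosphorylate the retinoblastoma proteins and so release E2F factors, which switch on many of the genes that fire origins, make deoxynucleotides and copy DNA. In cells that leave the cycle, including senescent fibroblasts, these genes are typically turned down as a block.

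Because E2F factors bind the promoters of many of these genes, the promoters were searched for the E2F core letters TTTCCCGC, TTTCGCGC, TTTGCCGC and TTTGGCGC on both strands, where a match on one strand can overlap a match on the other. RefSeq promoters (GRCm38.p6, from 250 bases before to 50 bases after each start, 300 bases in all) were matched by symbol for 44 of the 55 genes, with 55 promoters between them. The letters occurred in 18 of the 55 promoters (32.7%), each of a different gene, against 744 of all 32851 promoters (2.26%). The following windows of 30 bases are the matches that lie wholly upstream of the start and outside annotated exons, shown because they let the letters be compared between genes that fell and genes that did not pass. They read 5′ to 3′ on the strand of the gene with the matched letters in capitals. Mcm6 and Mcm5, both subunits of the helicase, each hold a site in which matches on both strands overlap to give 12 capitals, and Mcm6 holds another nearer to its start.
Mcm6, chr1:128359795-128359824, minus strand, 110 bases upstream of the start: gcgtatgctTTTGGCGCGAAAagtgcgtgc
Mcm6, chr1:128359734-128359763, minus strand, 47 bases upstream of the start: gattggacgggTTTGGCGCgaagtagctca
Mcm5, chr8:75109347-75109376, plus strand, 153 bases upstream of the start: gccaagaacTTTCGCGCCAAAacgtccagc
Cdc6, chr11:98908002-98908031, plus strand, 138 bases upstream of the start: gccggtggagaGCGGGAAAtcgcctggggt
Pola1, chrX:93632275-93632304, minus strand, 138 bases upstream of the start: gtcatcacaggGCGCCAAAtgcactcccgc
E2f7, chr10:110745230-110745259, plus strand, 198 bases upstream of the start: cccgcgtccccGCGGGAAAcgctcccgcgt
Uhrf1, chr17:56304117-56304146, plus strand, 185 bases upstream of the start: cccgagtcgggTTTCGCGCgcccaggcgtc
The windows of Cdc6 and Uhrf1 lay in an intron of another transcript of the same gene. The distances are counted to the first capital base.

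By role, the letters stood in the promoters of 7 of 10 licensing genes with a promoter (Cdc6, Cdt1, Mcm3, Mcm5, Mcm6, Mcm7 and Orc1), 3 of 6 polymerase genes (Pola1, Pold1 and Pole2), 2 of 4 E2F factors (E2f2 and E2f7), 2 of 4 chromatin genes (Dnmt1 and Uhrf1), 2 of 8 clamp and lagging strand genes (Lig1 and Rfc3), 1 of 5 cyclins and CDKs (Cdk2), 1 of 3 genes of helicase activation (Gins3) and 0 of 4 nucleotide supply genes. The CCAAT box was found in 33 of the 55 promoters (60.0%, against 37.4% of all promoters) and the letters TTTGAA or TTCGAA, the core of the CHR element of cell cycle genes, in 10 (18.2%, against 19.2%). These matches describe the sequence and do not show binding.

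**Figure D1:**
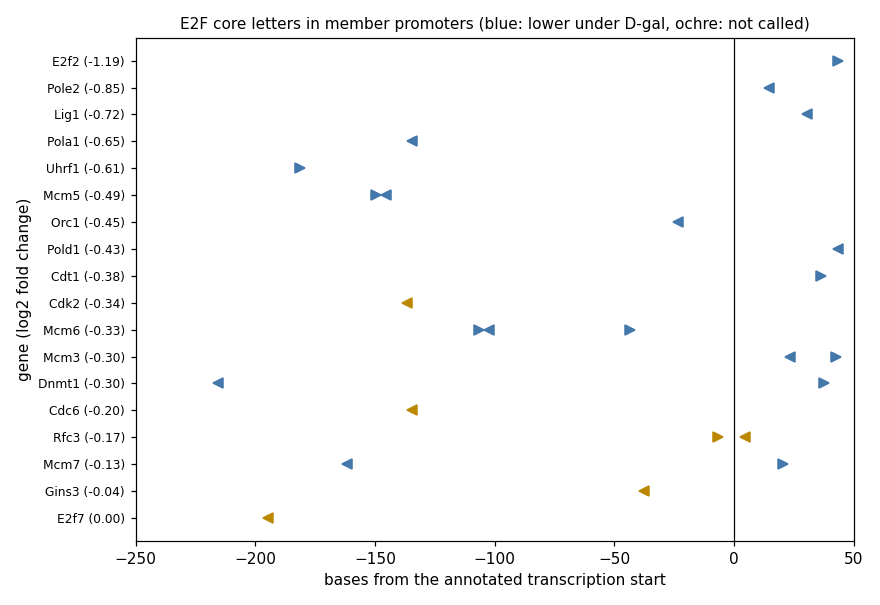
Position of the E2F core letters in bases from the annotated transcription start, for the 18 genes that hold them, with each gene's log2 fold change in brackets. Triangles point right where the letters read as written and left where they read on the other strand, and blue genes were lower under D-gal (13 genes) while ochre genes did not pass the test (5 genes).

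Control libraries held 16876087 to 20830349 counts and D-gal libraries 13759108 to 15157064, and genes of the mitochondrial genome held 4.26% to 4.44% and 4.87% to 4.98% of them. Of 10 fibroblast markers 9 could be tested, and their summed level was 127850 to 131117 normalized counts in control libraries and 83919 to 89365 under D-gal, while Lum had 1 count in all libraries together. The myogenic markers Pax7, Myf5 and Myod1 were at 0 in every library, and all 9 myogenic markers together reached 89.8 to 102 normalized counts in control and 62.8 to 67.7 in D-gal libraries. Summed levels of 5 endothelial markers were 75.9 to 90.6 in control and 51.8 to 56.8 in D-gal libraries, those of the leukocyte markers (Cd3e at 0) 52.5 to 167 and 59.5 to 68.7, and those of 5 epithelial markers (Epcam at 0) 588 to 628 and 352 to 396. By the edgeR quasi-likelihood test, adjusted by Benjamini and Hochberg's method over the 13407 genes tested, 6 of the fibroblast markers were lower and 1 higher. These are 66.7% and 11.1% of the markers tested, against 17.8% and 16.9% of all genes tested. Pdgfrb was the higher one, and Pdgfra and S100a4 did not pass. The summed level rested mostly on Col1a1, Col1a2 and Vim, with control means of 39305, 35912 and 22151 normalized counts. The part of these shifts in the results that follow was not tested.

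Most of the 55 genes were modestly lower under D-gal, and none was called higher. The calls lay mostly in the replication genes, since 2 of 8 cyclins and CDKs and 2 of 4 E2F factors were lower. All 55 could be tested, and 37 of them (67.3%) were lower at an adjusted p under 0.05, where the same call was made for 17.8% of all genes tested. For the opposite direction the count was 0 of 55, against 16.9% of all genes (at an unadjusted p under 0.05 the counts were 41 lower and 0 higher, and DESeq2 called 36 lower and 0 higher). The median log2 fold change of the 55 genes was -0.33, or a 1.25-fold lower level, while that of all genes tested was 0.0036. Their summed level was 108804 to 109861 normalized counts in the control libraries and 87415 to 90406 in the D-gal libraries. Because cells were measured in bulk, fewer cells in S phase and less RNA in each cell cannot be told apart.

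Log2 fold changes of the 37 lower genes ran from -1.19 to -0.13 with a median of -0.40, and 12 of them were lower by at least 0.5 on the log2 scale. The study's methods also ask for a change of 1 or more on the log2 scale. At these thresholds 1 of the 55 genes passed, E2f2 on the lower side, against 4.21% of all genes tested, 1.83% lower and 2.37% higher. In 41 genes all D-gal values were under all control values, as in 25.0% of all genes tested. Orc2 alone had every D-gal library above every control library (24.1% of all genes), and in 13 genes the groups overlapped. Just inside the call was Ccne2 with an edgeR adjusted p of 0.0343, and just outside it Rfc4 with 0.0504.

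**Figure D2:**
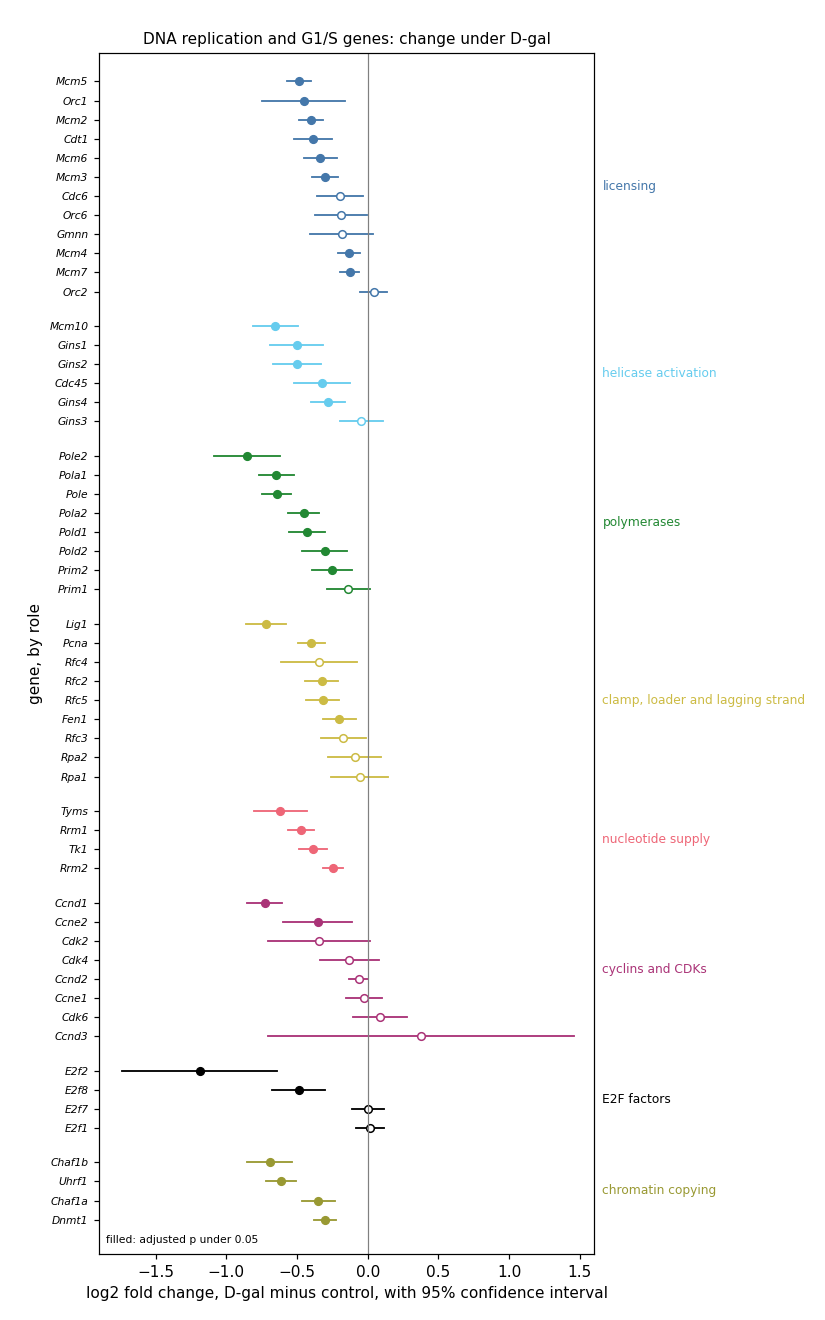
Log2 fold change (D-gal minus control, x axis) with its 95% confidence interval for each of the 55 genes, ordered by role and coloured by role. Filled points passed an adjusted p under 0.05 in edgeR's quasi-likelihood test, and all 37 of these lie left of 0, from -1.19 (E2f2) to -0.13 (Mcm7).

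Replicates were close for nearly all of these genes. The median ratio of the highest to the lowest replicate was 1.07 among controls and 1.10 under D-gal. Of the 55, only Ccnd3, Cdk2 and E2f2 exceeded 1.5-fold within a group, a limit that 20.3% of all genes tested exceeded. That share was not matched for level and includes genes with few counts. Counting did not separate some genes from their neighbours with certainty, since the use of strand is not given in the sources used here. Exons of 23 of the 55 genes overlap those of another gene on the opposite strand, 3 overlap one on their own strand, and 17 share over 10% of their words of 31 bases with other annotated genes. Of the 26 genes with neither kind of overlap and at most 10% shared words, 18 were lower.

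**Figure D3:**
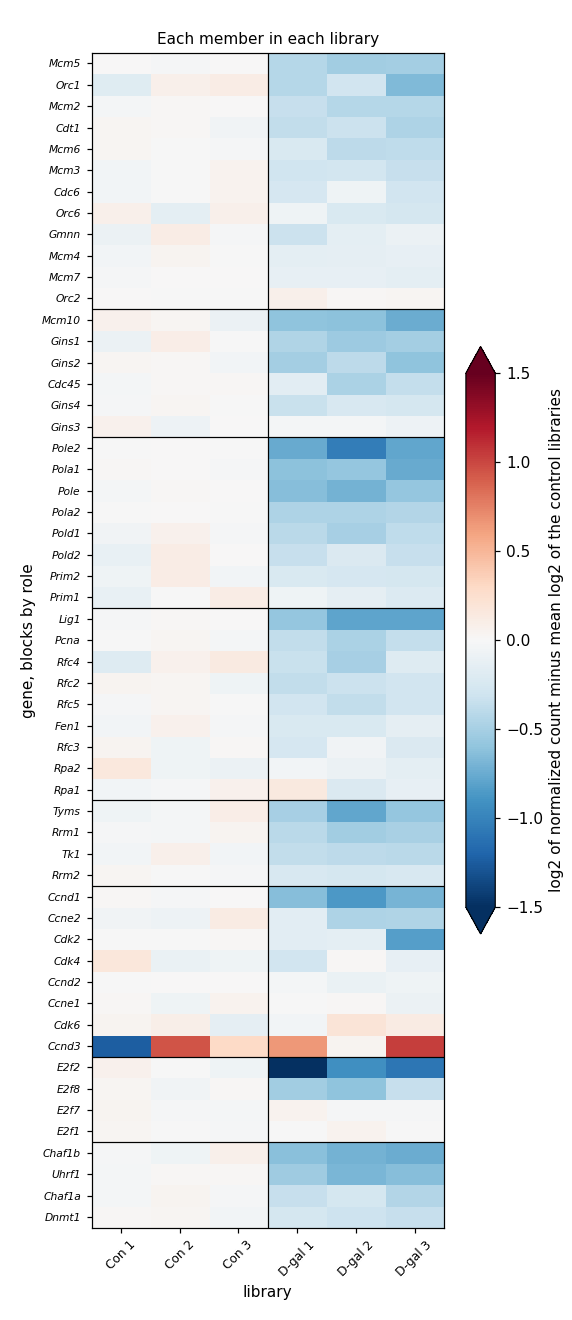
Each row is 1 of the 55 genes in blocks by role and each column a library, coloured by the log2 of its normalized count minus the mean log2 of the 3 control libraries (red higher, blue lower). The 3 D-gal columns are blue across most rows, while Ccnd3 differs between libraries within both groups.

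Among the licensing genes, the helicase subunits fell and the loaders and their inhibitor were mixed. All 6 subunits Mcm2 to Mcm7, which form the ring that unwinds DNA, were lower, with log2 fold changes from -0.49 to -0.13 and a median of -0.32. Mcm5 had 3573, 3513 and 3549 normalized counts in control replicates 1, 2 and 3 and 2639.5, 2466 and 2486 in D-gal replicates 1, 2 and 3. The 2 groups stood clearly apart, with a log2 fold change of -0.49 (SE 0.04, edgeR adjusted p = 6.07e-05). Mcm2 changed by -0.40, Mcm6 by -0.33 and Mcm3 by -0.30. Mcm4, at 3749.8, 3969 and 3855 against 3490.2, 3519 and 3552, changed by -0.13 (SE 0.03, edgeR adjusted p = 0.0180). Its call was lost without control replicate 2 (adjusted p = 0.0655), control replicate 3 (0.0510) or D-gal replicate 2 (0.0503), and in DESeq2 (0.0506). Mcm7 was at 3849, 3913 and 3910.2 against 3580.0, 3585 and 3523 (log2 fold change -0.13, edgeR adjusted p = 0.0123). Its exons overlap those of Ap4m1, Cops6, Mir25 and Mir93, and 33.4% of its words are shared. The ring holds its subunits in equal number, but the ratio given next is of RNA and not of protein. Per kb of exon the level of Mcm5 relative to Mcm4 was 0.826 ± 0.0305 (SD, n = 3) in control and 0.646 ± 0.0291 in D-gal libraries. Mcm5 fell the most of the 6 and Mcm4 was among those that fell least, so this shift restates their fold changes.

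Of the loaders of the ring, Cdt1 passed the test and Cdc6 did not. Cdt1, which brings the ring to origins, fell by 0.38 on the log2 scale (SE 0.06, edgeR adjusted p = 0.00162), from 941, 932 and 884 to 710.4, 737 and 665. Cdc6, the ATPase that works with it, had 790.4, 810.3 and 845 in control and 687, 779.7 and 668 in D-gal libraries. All its D-gal values were below all its controls, with a log2 fold change of -0.20 (95% confidence interval -0.36 to -0.03, edgeR adjusted p = 0.0630), and it passed without D-gal replicate 2 (log2 fold change -0.27, adjusted p = 0.0204). Gmnn, geminin, which holds Cdt1 in check after licensing, had 281, 324 and 296 against 240.2, 271 and 283, so the groups overlapped (log2 fold change -0.18, interval -0.41 to 0.04, edgeR adjusted p = 0.180). Cdt1 relative to Gmnn, per kb of exon, was 1.43 ± 0.114 (SD, n = 3) in control and 1.25 ± 0.143 in D-gal libraries, and these ratios overlapped.

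Of the origin recognition complex, Orc1 was lower, at 224, 268 and 275 in control and 189.7, 209 and 160.3 in D-gal libraries (log2 fold change -0.45, SE 0.13, edgeR adjusted p = 0.0276). This call was lost without control replicate 2 (adjusted p = 0.0812), control replicate 3 (0.0798), D-gal replicate 1 (0.0600) or D-gal replicate 3 (0.0773), and Gm12743 overlaps Orc1 on the other strand. Orc2 showed the opposite order, with 1108, 1105 and 1105 against 1163, 1124 and 1129, but the step was small (log2 fold change 0.04, interval -0.05 to 0.14, edgeR adjusted p = 0.474) and Nif3l1 overlaps it on the other strand. Orc6 had 1018, 876 and 1019 against 922, 827 and 805. These groups overlapped (log2 fold change -0.19, interval -0.37 to -0.0046, edgeR adjusted p = 0.105), and without control replicate 2 the gene passed, at -0.26 (adjusted p = 0.0367).

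Helicase activation, the step at which Cdc45 and the GINS complex join the loaded ring, was lower in 5 of its 6 genes (83.3%, against 17.8% of all genes tested). The median log2 fold change was -0.41. Mcm10, which acts as the ring starts to unwind, fell the most of the 6, from 774, 752 and 693 to 487, 484 and 439.8 normalized counts (log2 fold change -0.65, SE 0.07, edgeR adjusted p = 2.89e-04). Of the 4 GINS subunits, 3 were lower. Gins1 had 342, 389 and 364 against 266, 250.1 and 257 (log2 fold change -0.50, edgeR adjusted p = 0.00221). Gins4, the GINS gene with the most counts per kb of exon, had 843, 876 and 849 against 677, 726 and 711 (log2 fold change -0.28, edgeR adjusted p = 0.00433). Gins2 also changed by -0.50, although Gse1 overlaps it on the other strand and 66.2% of its words are shared. Gins3 had 478, 436 and 459 against 448, 449.9 and 434, and its log2 fold change was -0.04 (interval -0.19 to 0.11, edgeR adjusted p = 0.638). Per kb of exon, Gins1 relative to Gins3 was 1.43 ± 0.161 (SD, n = 3) in control and 1.04 ± 0.0382 in D-gal libraries. Cdc45 was lower by 0.32 on the log2 scale (559, 579 and 579.7 against 513, 412 and 448, edgeR adjusted p = 0.0204). That call was lost without control replicate 2 (adjusted p = 0.0581), control replicate 3 (0.0548), D-gal replicate 2 (0.0599) or D-gal replicate 3 (0.0599).

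The replicative polymerases were lower in 7 of 8 genes (87.5%, against 17.8% of all genes tested), with a median log2 fold change of -0.44. Pole2, the second subunit of polymerase epsilon, the leading strand enzyme, had 278, 279.9 and 277 normalized counts in control and 165, 135 and 163 in D-gal libraries. The mean level fell by 44.5% (log2 fold change -0.85, SE 0.10, edgeR adjusted p = 4.96e-04), in a gene that overlaps Gm49384 on its own strand over 245 bases. Pole, the catalytic subunit of the same enzyme, had 1942, 2004 and 1987 against 1275, 1206 and 1322 (log2 fold change -0.64, SE 0.04, edgeR adjusted p = 3.95e-05). Pola1, the catalytic subunit of polymerase alpha, which extends each primer, fell from 1548, 1531 and 1509.8 to 1002, 1021 and 906 (log2 fold change -0.65, SE 0.05, edgeR adjusted p = 8.61e-05).

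Pola2, the B subunit of polymerase alpha, changed by -0.45. Prim2, the large primase subunit, changed by -0.25 (edgeR adjusted p = 0.0156), a call lost without D-gal replicate 2 (adjusted p = 0.0504). Prim1, the catalytic primase subunit, had 1207, 1290.1 and 1409 against 1239, 1180.4 and 1127, so the groups overlapped (log2 fold change -0.14, interval -0.29 to 0.01, edgeR adjusted p = 0.143). The complex holds these subunits in equal number, but the ratio given next is again of RNA. Pola1 relative to Prim1 per kb of exon was 0.518 ± 0.0463 (SD, n = 3) in control and 0.363 ± 0.0148 in D-gal libraries. Of polymerase delta, which copies the lagging strand, Pold1 changed by -0.43 and Pold2, at 975, 1137 and 1059 against 830.5, 907 and 831, by -0.30 (edgeR adjusted p = 0.0112).

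At the clamp and on the lagging strand, 5 of 9 genes were lower (55.6%, against 17.8% of all genes tested) and the median log2 fold change was -0.32. Lig1 (chr7:13277283-13311433 of GRCm38, plus strand), the ligase that joins Okazaki fragments, had 1846, 1894 and 1886 normalized counts in control and 1254, 1080.0 and 1088 in D-gal libraries. Its mean level fell by 39.2% (log2 fold change -0.72, SE 0.06, edgeR adjusted p = 9.86e-05). Pcna, the sliding clamp, went from 2580.3, 2625 and 2538 to 1999, 1856 and 2017 (log2 fold change -0.40, edgeR adjusted p = 2.72e-04), with 23.3% of its words shared with other genes, among them the pseudogene Pcna-ps2. Fen1, the nuclease that trims Okazaki fragments, changed by -0.20 (edgeR adjusted p = 0.0174), but 79.6% of its words are shared, most of them with the overlapping Gm10143. Its call was lost without control replicate 2 (adjusted p = 0.0634), D-gal replicate 1 (0.0501) or D-gal replicate 2 (0.0595).

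Of the clamp loader, replication factor C, 2 of the 4 subunits grouped here passed (against 17.8% of all genes tested). A further subunit, Rfc1, was placed among the other origin and fork genes described below. It was also lower, with every D-gal value under every control (log2 fold change -0.20, edgeR adjusted p = 0.00358). Rfc2 (-0.33) and Rfc5 (-0.32) were lower, though Lat2 and Wsb2 overlap them on the other strand and 19.4% and 19.3% of their words are shared. Rfc3 had 690.2, 641 and 678 against 561, 645 and 576, which overlap (log2 fold change -0.17, edgeR adjusted p = 0.0955), and it passed without D-gal replicate 2, at -0.23 (adjusted p = 0.0422). Rfc4, overlapped by Eif4a2 on the other strand, had 303, 362 and 379.7 against 276, 245 and 302. Its D-gal values all lay under its controls (log2 fold change -0.34, interval -0.61 to -0.08, edgeR adjusted p = 0.0504), and it passed without control replicate 1 (-0.44, adjusted p = 0.0252), without D-gal replicate 3 (-0.42, adjusted p = 0.0464) and with no filter on low counts (-0.35, adjusted p = 0.0408).

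Replication protein A, which coats single-stranded DNA in replication and in repair, did not pass. Rpa1 had 2636, 2698 and 2839 against 3024, 2340.1 and 2497, with D-gal replicate 1 above every control (log2 fold change -0.06, interval -0.26 to 0.15, edgeR adjusted p = 0.665). Without that library the value was -0.17 (adjusted p = 0.0394). Rpa2 had 599, 512 and 506 against 524, 507 and 487 (log2 fold change -0.09, interval -0.28 to 0.10, edgeR adjusted p = 0.428).

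Nucleotide supply was lower in 4 of 4 genes (against 17.8% of all genes tested), with a median log2 fold change of -0.43. Tyms, thymidylate synthase, which makes the thymidine nucleotide of DNA, had 952, 978 and 1068 normalized counts in control and 706, 581 and 668 in D-gal libraries (log2 fold change -0.62, SE 0.08, edgeR adjusted p = 8.63e-04), with 11.4% of its words shared. Rrm1, the large subunit of ribonucleotide reductase, the enzyme that makes deoxynucleotides, had 6769, 6719.6 and 7058 against 5172, 4761 and 4905 (log2 fold change -0.47, SE 0.04, edgeR adjusted p = 9.43e-05). Rrm2, its S phase partner, with 12.8% of its words shared, had 5313, 5149.6 and 5109 against 4410.4, 4334 and 4405 (log2 fold change -0.24, edgeR adjusted p = 6.47e-04). Per kb of exon, Rrm1 relative to Rrm2 was 0.332 ± 0.0139 (SD, n = 3) in control and 0.284 ± 0.00988 in D-gal libraries. Tk1, the thymidine kinase of the salvage route, changed by -0.39.

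Of the 8 cyclins and CDKs that drive the G1/S transition, 2 were lower (25.0%, against 17.8% of all genes tested), too few genes to set the group apart. The median log2 fold change was -0.10. Ccnd1, cyclin D1, which carries growth factor signals into the cycle, had 8751, 8587 and 8703 normalized counts in control and 5575, 4791 and 5344 in D-gal libraries. Its mean level fell by 39.7% (log2 fold change -0.73, SE 0.05, edgeR adjusted p = 4.87e-05), in a gene overlapped by LTO1 on the other strand. Ccnd2, cyclin D2, had 8989.8, 9089 and 9102 against 8884, 8438 and 8695. Although every D-gal value was below every control, the log2 fold change was -0.06 (interval -0.13 to 0.0044, edgeR adjusted p = 0.134). Cyclin D1 relative to cyclin D2, per kb of exon, was 1.95, 1.89 and 1.91 in control libraries and 1.25, 1.13 and 1.23 in D-gal libraries. In both groups cyclin D1 was the higher of the pair on that scale.

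Ccnd3 (chr17:47505051-47599691 of GRCm38, plus strand), cyclin D3, could not be placed. Its normalized counts were 437, 1979.6 and 1271 in control and 1621, 1063 and 2116 in D-gal libraries, a 4.53-fold range among the controls, which ranked 12 among the 9207 genes with a mean of at least 200 normalized counts. The groups overlapped, and the log2 fold change was 0.38 with an interval from -0.70 to 1.46 (edgeR adjusted p = 0.577). It was -0.03 without control replicate 1 and 0.91 without control replicate 2. Both extreme values rested on ample depth, 501 and 2426 counts, and Bysl overlaps the gene on the other strand.

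Of the cyclin E genes, Ccne2 passed the test and Ccne1 did not. Ccne1 had 909, 861 and 935 against 898, 913 and 845, overlapping groups with a log2 fold change of -0.03 (interval -0.15 to 0.10, edgeR adjusted p = 0.756). Ccne2 had 388, 381 and 438 against 360.2, 290.5 and 293 (log2 fold change -0.35, SE 0.11, edgeR adjusted p = 0.0343). This call was fragile: leaving out control replicate 1, 2 or 3 gave adjusted p values of 0.0612, 0.0536 and 0.1001, leaving out D-gal replicate 2 or 3 gave 0.102 and 0.1003, and Ints8 overlaps the gene on the other strand. Per kb of exon, Ccne2 relative to Ccne1 was 0.340 ± 0.0162 (SD, n = 3) in control and 0.271 ± 0.0322 in D-gal libraries.

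None of the 3 kinases passed. Cdk4, with the highest level of the 55 genes in control per kb of exon (2254 normalized counts per kb), had 8222, 6798 and 6954 against 5991, 7379.7 and 6710.4, which overlap (log2 fold change -0.13, interval -0.34 to 0.08, edgeR adjusted p = 0.311), and Tspan31 overlaps it on the other strand. Cdk6, which shares its cyclin partners, had 734, 761 and 652 against 695, 814 and 775 (log2 fold change 0.09, interval -0.10 to 0.28, edgeR adjusted p = 0.452). Cdk2, the partner of cyclin E, had 1496, 1493 and 1515 against 1347, 1354 and 846. D-gal replicate 3 stood well under the other libraries, and the log2 fold change of -0.34 (interval -0.70 to 0.02, edgeR adjusted p = 0.127) became -0.15 without it, when the gene passed (adjusted p = 0.0381).

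Of the E2F factors, E2f2 and E2f8 were lower, and E2f1 and E2f7 did not pass. E2f1, an activator, had 1212, 1179.9 and 1175 normalized counts in control and 1188, 1231 and 1188 in D-gal libraries (log2 fold change 0.02, interval -0.08 to 0.11, edgeR adjusted p = 0.802). E2f2 (chr4:136172394-136196057 of GRCm38, plus strand), another activator, was the most reduced of the 55 genes and the least abundant, at 45.3, 43.2 and 41.4 against 13.5, 22.9 and 20.5, from 52, 53 and 41 counts against 12, 21 and 17. The difference was 2.28-fold (log2 fold change -1.19, SE 0.24, interval -1.74 to -0.64, edgeR adjusted p = 0.00620), and without D-gal replicate 1 it was -0.99 on the log2 scale. E2f7, a repressor, had 966, 920.4 and 919 against 967, 922 and 923, nearly the same values (log2 fold change 0.0036, interval -0.11 to 0.12, edgeR adjusted p = 0.965). E2f8, its close relative, had 521, 495 and 519 against 356, 336 and 404 (log2 fold change -0.49, SE 0.08, edgeR adjusted p = 0.00262), and Gm2788 overlaps it on the other strand. Per kb of exon, E2f8 relative to E2f7 was 0.906 ± 0.0248 (SD, n = 3) in control and 0.646 ± 0.0679 in D-gal libraries.

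**Figure D4:**
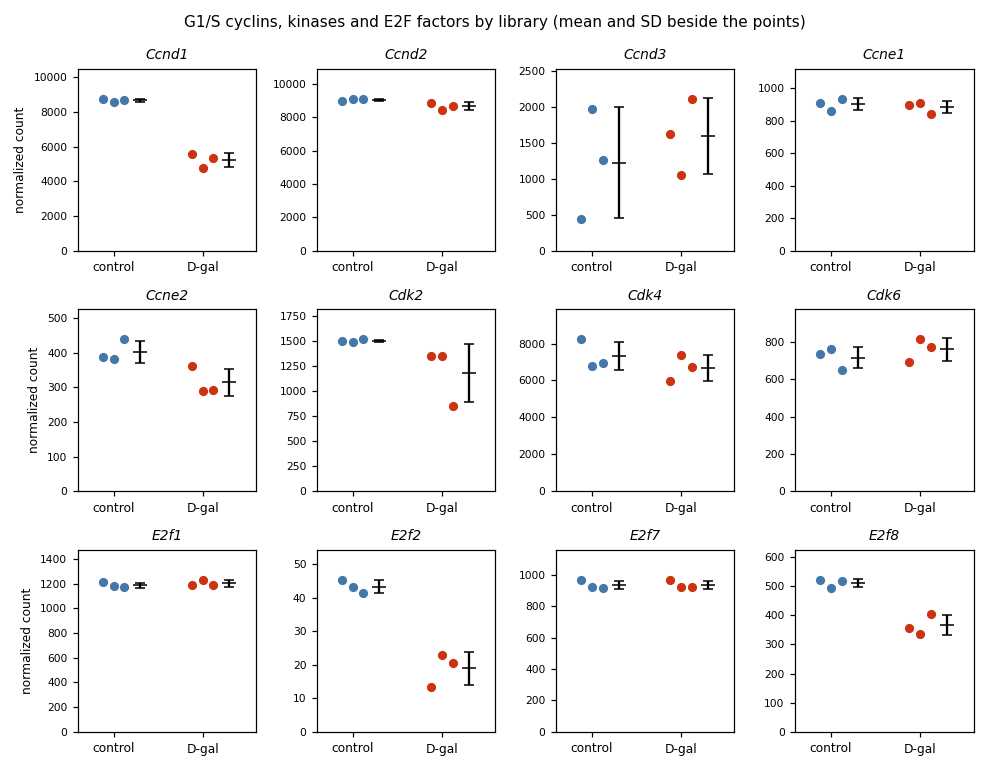
Normalized counts of the 12 cyclins, kinases and E2F factors in each of the 3 control (blue) and 3 D-gal (red) libraries, with the mean and SD as a black bar beside the points and each y axis starting at 0. Ccnd1, E2f2 and E2f8 separate by a wide gap, Ccnd3 scatters in both groups, and 1 D-gal library of Cdk2 lies at 846.

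Chromatin copying was lower in 4 of 4 genes (against 17.8% of all genes tested), with a median log2 fold change of -0.48. Chaf1b, a subunit of the CAF-1 complex that places new histones behind the fork, had 593, 577 and 636 normalized counts in control and 388, 369 and 358 in D-gal libraries (log2 fold change -0.69, edgeR adjusted p = 1.88e-04). Chaf1a, the large subunit of that complex, changed by -0.35, but Ubxn6 overlaps it on the other strand and 51.0% of its words are shared. Uhrf1, which recognises half-methylated DNA after the fork has passed, had 2599, 2676 and 2687 against 1840.5, 1657 and 1709 (log2 fold change -0.61, edgeR adjusted p = 5.61e-05), with 24.2% of its words shared. Dnmt1, the methyltransferase that it brings in, had 6764, 6804 and 6471 against 5576, 5404 and 5277 (log2 fold change -0.30, edgeR adjusted p = 4.37e-04).

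Side by side, nucleotide supply (4 of 4 lower, median log2 fold change -0.43), polymerases (7 of 8, -0.44), helicase activation (5 of 6, -0.41) and chromatin copying (4 of 4, -0.48) had the larger shares and medians. Licensing (8 of 12, -0.25), the clamp and lagging strand (5 of 9, -0.32), the E2F factors (2 of 4, -0.24) and the cyclins and CDKs (2 of 8, -0.10) lay nearer to 0. No test was made between these groups of few genes. Over all genes tested the share called lower was 17.8%. Among genes with a matched promoter, the E2F letters stood in 13 of the 28 lower genes and in 5 of the 16 that did not pass. The median log2 fold change was -0.36 in genes with the letters and -0.31 in genes without them.

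**Figure D5:**
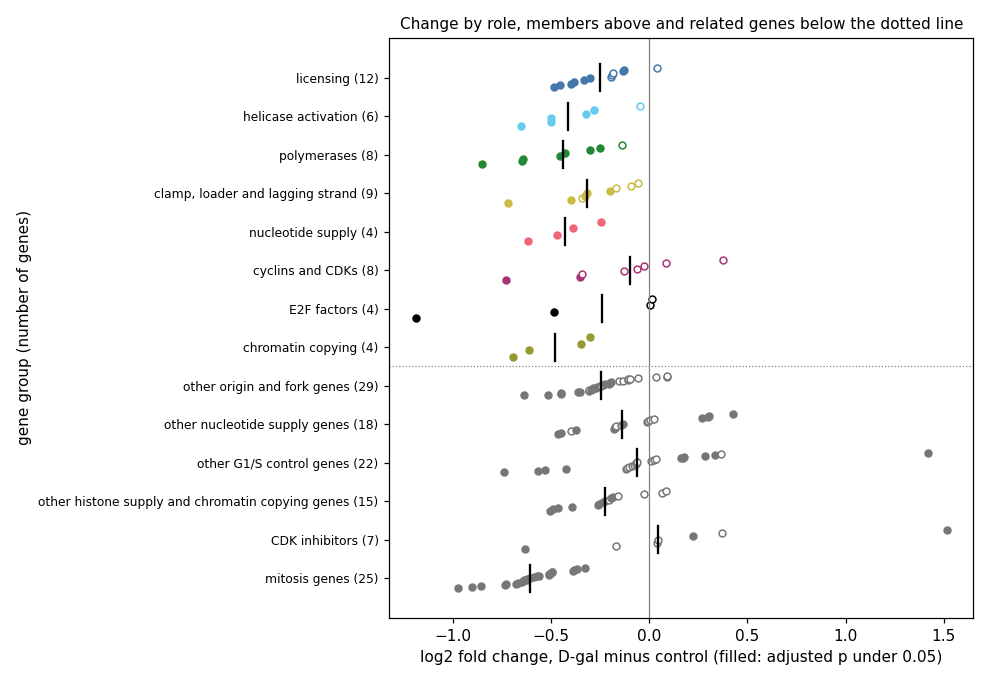
Log2 fold change (D-gal minus control) of each gene by role, for the 55 genes above the dotted line and for 6 lists of related genes below it, with the median of each group as a black bar. Filled points passed an adjusted p under 0.05, and medians run from -0.61 in the mitosis genes to 0.05 in the CDK inhibitors.

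Further genes of the same pathway were read from 5 lists written by role, 91 genes in all, with a median log2 fold change of -0.16. Of these genes 38 were lower (41.8%, against 17.8% of all genes tested), 11 higher (12.1%, against 16.9%) and 42 did not pass. Of 29 other origin and fork genes 17 were lower (58.6%) and 0 higher (median -0.25, and at an unadjusted p under 0.05 the counts were 19 and 1). The largest falls among them were those of Dscc1 (196, 196 and 241 against 127, 152 and 128, log2 fold change -0.64, edgeR adjusted p = 0.00663) and Chtf18 (-0.51), both parts of an alternative clamp loader. Dbf4, the activating partner of the Cdc7 kinase that fires origins, had 1347, 1346 and 1353 against 1008, 953 and 1005 (log2 fold change -0.45, edgeR adjusted p = 1.73e-04), and Rnaseh2b also changed by -0.45.

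Of 18 other nucleotide supply genes 6 were lower (33.3%, against 17.8% of all genes tested) and 4 higher (22.2%, against 16.9%). The lower ones included Dut (-0.46), which removes dUTP, and Dck (-0.37), a salvage kinase. Samhd1, which breaks deoxynucleotides down, was higher, at 3669, 3419.8 and 3533 in control and 4728, 4823 and 4727 in D-gal libraries (log2 fold change 0.43, edgeR adjusted p = 9.03e-05). Rrm2b, the p53-induced counterpart of Rrm2, was also higher, at 272, 265 and 309 against 351, 355 and 335 (log2 fold change 0.30, edgeR adjusted p = 0.0277), and Gm49085 overlaps it on the other strand. Relative to Rrm2 and per kb of exon, Rrm2b was 0.0165 ± 0.00160 (SD, n = 3) in control and 0.0240 ± 0.000895 in D-gal libraries. Dctd (0.30) and Ctps (0.27) were the other higher genes.

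Of 22 other G1/S control genes 4 were lower (18.2%) and 5 higher (22.7%), shares near those of all genes tested (17.8% and 16.9%). Rbl1, the pocket protein p107, had 1190.4, 1275 and 1362 against 808, 716 and 770.0 (log2 fold change -0.74, edgeR adjusted p = 1.42e-04), whereas its relatives Rb1 (0.33) and Rbl2 (0.16) were higher. On the other strand Lpar6 and Rcbtb2 overlap Rb1, and Aktip and Gm45464 overlap Rbl2. Of their words 13.2% and 18.6% are shared. Fbxo5 (-0.57), an inhibitor of the anaphase-promoting complex, Mybl2 (-0.53), a transcription factor, and Ccna2 (-0.42), cyclin A2, were lower. Tfdp2, a DNA-binding partner of the E2F factors, was higher, with 435, 490.4 and 276 in control and 1054, 1079 and 1097 in D-gal libraries (log2 fold change 1.42, SE 0.18, edgeR adjusted p = 5.96e-04). Myc (0.29) and Cdk7 (0.18) were higher as well.

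Among the 7 CDK inhibitors 2 were higher (28.6%, against 16.9% of all genes tested) and 1 lower (14.3%, against 17.8%), too few genes to set the list apart. Cdkn2b, p15, which binds Cdk4 and Cdk6, had 289, 268 and 286 normalized counts in control and 759.8, 880.1 and 770.0 in D-gal libraries. Its log2 fold change of 1.52 (SE 0.08, edgeR adjusted p = 1.06e-05) was the largest rise in the 5 lists. Cdkn2a, the neighbouring gene of p16 and p19Arf, had 971, 919 and 978 against 1154, 1123 and 1075 (log2 fold change 0.23, edgeR adjusted p = 0.0103). Per kb of exon, Cdkn2b relative to Cdkn2a was 0.248 ± 0.00305 (SD, n = 3) in control and 0.607 ± 0.0530 in D-gal libraries. Cdkn2c, p18, went the other way, from 661, 575 and 530.2 to 356, 401 and 384 (log2 fold change -0.63, edgeR adjusted p = 0.00153). Cdkn1a, p21, had 5043, 4808 and 4779.7 against 5044, 5044 and 5016 (log2 fold change 0.05, interval -0.03 to 0.12, edgeR adjusted p = 0.315). Cdkn1b (-0.17, edgeR adjusted p = 0.0632), Cdkn1c (0.37, 0.185) and Cdkn2d (0.04, 0.757) did not pass.

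Of 15 further genes that supply histones and copy chromatin, 10 were lower (66.7%, against 17.8% of all genes tested) and 0 higher (against 16.9%). Their median was -0.22, and the counts were the same at an unadjusted p under 0.05. Asf1b (-0.51) and Nasp (-0.49), both histone chaperones, and Mms22l (-0.46), a fork protection factor, had the lowest values. A list of 25 mitosis genes was lower in 25 of 25 (against 17.8% of all genes tested), with a median log2 fold change of -0.61. Its summed level was 80775 to 81267 normalized counts in control and 52491 to 55410 in D-gal libraries, and its part in the results above was not tested.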

How the data were processed

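RNA-seq of NOR-10 cells was compared between 3 control and 3 D-gal libraries, grouped and numbered by the sample labels, with dose and time from the methods. The deposited table gives for each gene a count of reads, not normalized, and an FPKM value that the authors scaled by gene length and library total. The authors checked and trimmed reads with FastQC and Trimmomatic, and the submitters' processing notes name HISAT2 2.0.4. The counting tool, its use of strand and the annotation are not given in the sources used here. The labels name an RNA-seq kit and the methods a small RNA kit.

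Counts were tested with edgeR 4.0.16 (R 4.3.3, limma 3.58.1): TMM scaling (factors 0.986 to 1.01), filterByExpr, the quasi-likelihood test without covariates and Benjamini-Hochberg adjustment over 13407 genes, with a coefficient of biological variation of 9.47%. Normalized counts are counts scaled to the mean TMM-adjusted library size. Intervals are 95% confidence intervals of the log2 fold change. Values per kb divide by the length of the merged exons, and Ensembl identifiers were matched to GENCODE M21 (GRCm38), where 45 of the 55 genes have the same span. Ratios between genes were given without a test. They restate the fold changes of the 2 genes and add no separate support. They compare RNA and not protein, and their size depends on exon lengths that merge all annotated transcripts of a gene. No replicates were duplicates, since their counts differed beyond sampling noise (chi-square over its degrees of freedom 6.00 to 9.42). Values in every library are given for the genes with the lowest and highest log2 fold change and the 2 most counts per kb in each role, for all cyclins, CDKs and E2F factors, for genes that did not pass and for a few of the largest changes in each list. Other values were added where a result turns on them. The 55 genes and the lists were chosen with earlier results of these data known. Alternatives were DESeq2 1.42.0, RLE size factors, other filters, a replicate block, leaving out each library, limma on log2(FPKM + 1) or log2(FPKM + 0.1), and an adjusted p under 0.01. The functions were tested on simulated data. Single values of a few genes in the lists are not reported here.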

Additional observations from a re-analysis of the deposited data

How the results depend on the processing

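The count of 37 lower genes stayed between 33 and 37 when 1 library was left out and was 36 in DESeq2 and 38 without a filter, and no gene was higher in any of the 14 alternatives. Of the 37 genes, 29 were lower in every alternative. The median log2 fold change of -0.33 ranged from -0.35 to -0.30 when 1 library was left out, and was -0.26 in limma on log2(FPKM + 1) and -0.29 on log2(FPKM + 0.1), scales that compress low values. The count of 1 gene at the study's thresholds (E2f2) became 0 in both limma fits (log2 fold changes -0.30 and -0.91) and ranged from 0 to 1 when 1 library was left out, with 0 without D-gal replicate 1. In the 91 related genes, 38 lower and 11 higher became 25 and 7 at an adjusted p under 0.01, and ranged from 32 to 37 and from 9 to 11 when 1 library was left out. No value past the threshold changed sign.

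The replicate numbers gave no sign of pairing: deviations of same-numbered libraries correlated at -0.0114, -0.0027 and 0.0277. All pairs of a control and a D-gal library lay between -0.0248 and 0.0282, the highest being control replicate 1 with D-gal replicate 2. With 3 libraries in each group, values this near 0 cannot exclude pairing. A fit with the replicate number as a block gave 36 lower genes and 0 higher, a median log2 fold change of -0.33, 1 gene at the study's thresholds, and 34 lower and 10 higher of the related genes. Ccne2 was the gene lost (adjusted p = 0.0549). Depth limits E2f2 most of the 55 genes, at 12 to 53 counts in a library.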
